A study of Mus musculus with 4 samples.

Results

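The regions described here are intergenic distal regions that opened by day 4 of cardiogenic differentiation of mouse embryonic stem cells (mESCs). The assay was ATAC-seq. A transposase cuts DNA where chromatin is accessible, and a peak marks a place where the resulting fragments pile up. The members were chosen by their peak calls. Overlapping peaks of the 4 libraries, sharing 1 bp or more, were joined, which gave 40910 union regions. A region was kept if both d4 libraries and neither of the d2 libraries had a peak in it, and if it lay more than 1000 bp from any transcript start and overlapped no gene body of GENCODE release M 21 on mm10. The rule left 1718 members, out of 11065 intergenic distal regions and 40910 regions in all. When 1 d4 library was left out, so that a peak in the other sufficed, it kept 2742 without d4 replicate 1 and 3146 without d4 replicate 2.

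The samples were 2 libraries at d4 and 2 at d2, all of wild-type ES-E14TG2a cells, an established mESC line kept without feeders and differentiated in serum-free medium. The d2 cells were embryoid bodies, that is aggregates of differentiating cells. The d4 cells had been dissociated, reaggregated and exposed to human Activin A, BMP4 and VEGF, so time and growth factors cannot be told apart between the groups. The replicates came from separate differentiation experiments, each library is a mixture of all cells in the culture, and more open cells and more open chromatin per cell cannot be told apart. The study's question was which regions open as an endothelial programme begins.

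Distal regions of open chromatin are often enhancers, DNA segments that bind transcription factors and raise the activity of a gene that can lie far away. Factors recognise short sequence motifs. GATA factors bind the letters GATA with preferred neighbours and act in early mesoderm, heart, endothelium and blood, ETS factors act in endothelium, TEAD factors carry the Hippo signal, and ZEB and SNAI factors bind the E-box CAGGTG. In the early embryo, POU and SOX factors act together in pluripotent cells. A motif match is a description of the letters and does not show binding, and a nearest gene is not shown to be a target.

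Of the 12 members with the highest lower fold enrichment of both d4 libraries, 9 held the 7-letter GATA motif (AGATAAG or TGATAAG, on either strand) within 100 bp of the summit, the point of highest pileup. That motif was in 33.1% of all members and 7.20% of all union regions. The windows of 5 of the 9 are printed from the RefSeq reference genome, GRCm38.p6, with the 6-letter GATA form (AGATAA or AGATAG, or else the same with a leading T, TGATAA or TGATAG, read on either strand) in capitals. Each line is named by the nearest protein-coding gene.
Smc2, chr4:52429621-52429741 (plus strand): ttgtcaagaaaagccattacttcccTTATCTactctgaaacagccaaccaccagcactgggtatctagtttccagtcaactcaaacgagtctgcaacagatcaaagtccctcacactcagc
Tdrd3, chr14:87754875-87754995 (plus strand): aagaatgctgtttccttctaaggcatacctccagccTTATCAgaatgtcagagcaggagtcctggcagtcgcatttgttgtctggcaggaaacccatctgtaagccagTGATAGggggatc
Ptprd, chr4:78600136-78600336 (plus strand): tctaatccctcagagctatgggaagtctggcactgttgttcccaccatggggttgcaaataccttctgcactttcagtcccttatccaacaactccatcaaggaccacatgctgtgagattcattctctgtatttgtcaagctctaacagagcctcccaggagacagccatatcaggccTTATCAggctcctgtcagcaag
Fbn1, chr2:125516730-125516850 (plus strand): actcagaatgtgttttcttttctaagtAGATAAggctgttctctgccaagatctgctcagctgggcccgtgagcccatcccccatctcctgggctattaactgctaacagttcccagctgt
Vav3, chr3:109286750-109286870 (plus strand): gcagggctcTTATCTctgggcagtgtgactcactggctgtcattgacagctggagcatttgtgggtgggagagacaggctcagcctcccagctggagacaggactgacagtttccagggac

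The member near Smc2, which encodes a condensin subunit, reached 16.9 (d4 replicate 1) and 20.3 (d4 replicate 2) in fold enrichment over background. Its whole region was chr4:52429512-52429806 and lay 9.44 kb upstream of the start of Smc2. The member near Tdrd3 had 16.5 and 18.4 and lay 215.7 kb downstream of that start. The member near Ptprd, a receptor tyrosine phosphatase gene, had 17.7 and 15.9, with its GATA match farther from the summit than in the others. The member upstream of Fbn1, which encodes the matrix protein fibrillin-1, had 16.5 and 15.5 at a distance of 8.60 kb. The member near Vav3 had 15.4 and 18.1 and lay 53.6 kb upstream. Both d4 libraries were high at each of these members, and neither d2 library had a peak there, as the rule requires.

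Among the rest of the 12 strongest, the members near Flrt2, a cell adhesion gene (16.4 and 16.2 in d4 replicates 1 and 2), Prickle1, a planar cell polarity gene (14.9 and 14.9), Mme, which encodes the peptidase neprilysin (16.6 and 14.8), and Cited2, a transcriptional coregulator gene (15.1 and 14.7), lay at least 50.3 kb from the nearest coding start. The member near Slco6d1, an organic anion transporter gene, had 14.8 and 16.8. The Cited2 member lay 1177 kb upstream of its nearest coding start, so the gene is far away there. The Flrt2 member held 2 matches of the 6-letter form without the seventh letter, and the Slco6d1 and Cited2 members held no GATA match within 100 bp of the summit. A further 2 of the 12 lay nearest to coding genes known only by model names.

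Fold enrichment is the pileup at the summit over the local background, with 1 added to both, as the authors' peak caller wrote it. Over all members it had a median of 7.99 in d4 replicate 1 (range 4.27 to 17.7) and 7.76 in d4 replicate 2 (4.25 to 20.3). The interquartile ranges were 6.61 to 9.83 and 6.39 to 9.51. The median summit pileup was 16 for d4 replicate 1, with 15 for d4 replicate 2, and ranged down to 7 in both, so that the weakest members rest on few fragments. Both d4 libraries ranked the members alike in part. Across members, which share libraries and are not independent, Spearman's rank correlation was 0.61 and Pearson's r of the log2 values was 0.64. The SD of the log2 ratio between the replicates was 0.34, and 1580 members (92.0%) had values within a factor of 1.5 of each other. The summits of both libraries lay a median of 41 bp apart, and within 50 bp in 59.4% of members. In 1711 members each d4 library had a single peak.

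**Figure D1:**
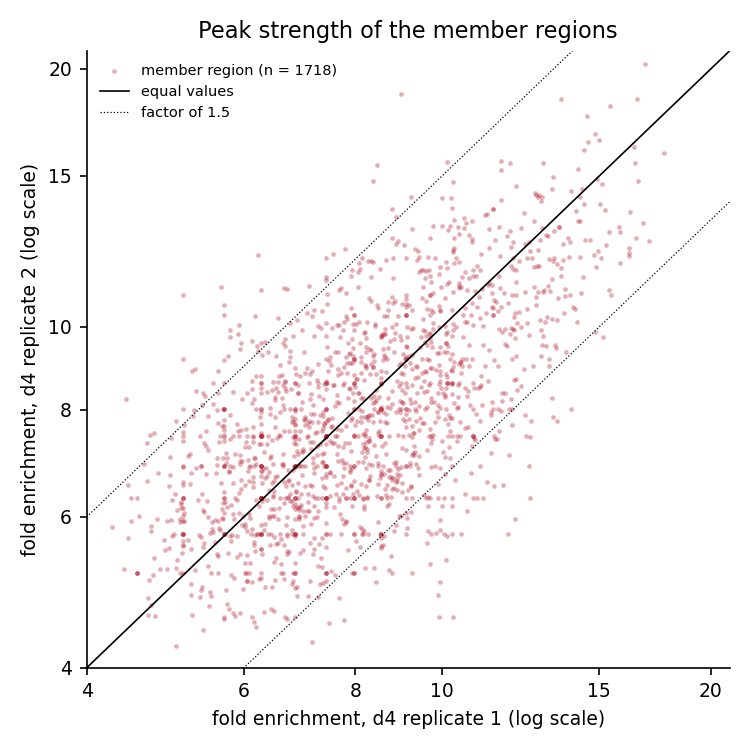
Fold enrichment of each of the 1718 members in d4 replicate 1 (x axis, log scale) and d4 replicate 2 (y axis, log scale); the solid line marks equal values and the dotted lines a factor of 1.5. Most members (92.0%) lie between the dotted lines, and no d2 value is drawn because the members were chosen to lack d2 peaks.

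The counts behind the rule are as follows. Regions called in each d4 library and at no time in d2 made up 9.93% of all union regions and 15.5% of the intergenic distal ones. The same rule with the time points exchanged kept 1819 intergenic distal regions called only at d2, which is 16.4%. These are the comparison set below, called d2-only. A further 888 intergenic distal regions were called in all 4 libraries. Since the calls define the sets, the counts are a description and no test was run on them, and with 2 d4 and 2 d2 libraries the smallest p of an exact permutation test would be 0.33.

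Absence of a d2 peak is a call and not a measured zero. The d4 libraries had 22511 and 21299 peaks and the d2 libraries 26865 and 24544. The d4 libraries were the deeper ones, with d2 background coverage of 0.752 and 0.640 relative to d4 replicate 1. When the lower d4 pileup of each member was scaled to the d2 depths, 1524 of 1718 members (88.7%) reached the smallest pileup called at d2, which was 6, in both d2 libraries. At 2 times that pileup 404 members (23.5%) were left. The part of depth in the missing d2 calls was not tested further. The weakest member, at chr9:65541750-65542008, had a −log10 q of 6.54 and 3.15 in d4 replicates 1 and 2, where 3 is the limit of the peak lists. A region at chr4:123014014-123014204 was kept out by a single d2 peak with a −log10 q of 3.10, and 303 intergenic distal regions with both d4 peaks were kept out by a peak in exactly 1 d2 library. The member nearest to a transcript start, at 1001 bp, was chr17:45619178-45619678, and a region at 975 bp, chr2:166399162-166399592, fell just outside the limit.

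The members were short. Their union width had a median of 285 bp, against 263 bp for d2-only regions. They lay a median of 20.9 kb from the closest transcript start, whatever the gene type (interquartile range 8.56 to 46.9 kb, maximum 441 kb), against 15.6 kb for d2-only regions and 12.5 kb for regions called in all 4 libraries. The distance to the nearest protein-coding start had a median of 59.0 kb, against 38.1 kb for d2-only regions. Upstream of that start lay 1012 members (58.9%), and 61.3% of d2-only regions. Their density was highest on chromosome 10, with 0.964 members per Mb, and lowest among the autosomes on chromosome 19, with 0.391. On chromosome X it was 0.281. There members made up 48 of 307 intergenic distal regions, or 15.6%, near the 15.5% of the whole genome, and the Y chromosome had 1 intergenic distal region and no member.

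The base composition of the 201-base windows around the summits had a median GC content of 50.7%, against 52.7% in d2-only regions and 57.2% in regions called in all 4 libraries. Windows 1000 bp to either side of the member summits had 43.8%. The median number of CpG dinucleotides was 2 in members, 3 in d2-only regions and 6 in regions called in all 4 libraries. Repeat sequence, soft-masked in the reference, took a mean of 8.64% of member windows, against 12.3% of d2-only windows.

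The GATA motif set members apart from d2-only regions more than any other motif searched did. The 7-letter form was present within 100 bp of the summit in 568 of 1718 members (33.1%, Wilson 95% interval 30.9 to 35.3), against 46 of 1819 d2-only regions (2.53%, 1.90 to 3.36). The difference was 30.5 percentage points (Newcombe 95% interval 28.2 to 32.9). These intervals cover counting error only, and regions of 1 genome are not replicates. The share was 4.17% in regions called in all 4 libraries, 7.20% over all union regions, and 5.27% in windows 1000 bp from the member summits. Regions that gained peaks in both d4 libraries inside gene bodies, which the rule left out, had 30.2%, close to the members.

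Counted by library, which gives a value for each sample, the share of intergenic distal regions with the 7-letter motif at the library's own summits came to 19.5% for d4 replicate 1 with 19.8% for replicate 2, whereas it came to 3.45% for d2 replicate 1 with 3.02% for replicate 2. Its mean was 19.7% ± 0.16 at d4 and 3.24% ± 0.30 at d2 (SD, n = 2 each), and the time points did not overlap. They did not overlap for any other motif counted by library either. These shares are not separate from the rule, because both d4 libraries count the 1718 members and both d2 libraries the 1819 d2-only regions. Members gave 570 of the 939 regions with the motif in d4 replicate 1 and 557 of 844 in d4 replicate 2. The SD therefore covers regions that both libraries share. Among the members the d4 replicate 1 summits gave 33.2% and the d4 replicate 2 summits 32.4%. By the libraries that called a region, the share differed as follows. The members had 33.1%, intergenic distal regions called in d4 replicate 1 alone 20.03%, those called in d4 replicate 2 alone 19.96%, those with both d4 libraries and d2 replicate 1 10.6%, and those in all 4 libraries 4.17%. Those called in 1 library of each time point had 1.94% to 3.01%, on 2 to 5 regions with the motif for each pair of libraries. Their Wilson 95% intervals all included the 4.17% of regions called in all 4 libraries. Regions called in d2 replicate 1 alone had 3.29% and in d2 replicate 2 alone 2.54%. The single-library regions at d4 carried the motif more often than those at d2, at intervals that did not overlap (18.0 to 22.2 in d4 replicate 1, against 2.59 to 4.17 in d2 replicate 1).

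The 6-letter form was present in 64.8% of members and 18.0% of d2-only regions. It was common elsewhere too, and 35.8% of the windows 1000 bp from member summits held it. Of its forms, AGATAA was found in 41.3% of members and 5.17% of d2-only regions, TGATAA in 21.9% and 4.34%, AGATAG in 15.3% and 5.83%, and TGATAG in 9.31% and 4.07%. The related letters AGATTA, which are not a GATA motif, were found in 9.20% of members and 7.70% of d2-only regions. Matches to the 6-letter form numbered 2 or more in 474 members (27.6%), against 36 d2-only regions (1.98%).

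GATA matches lay close to the summits of members. Within 50 bp of the summit there were 2.39 matches of the 7-letter form per 1000 bases, against 0.373 per 1000 bases at 200 to 300 bp. In d2-only regions the same values were 0.131 and 0.154, with no peak at the summit. The share rose with peak strength measured as fold enrichment. In members ordered by their lower fold enrichment it was 25.4% in the weakest quartile, 31.4% and 33.3% in the middle quartiles, and 42.1% in the strongest, where the intervals of the weakest (21.5 to 29.7) and the strongest (37.5 to 46.8) did not overlap. It did not change with distance to the nearest transcript start beyond these intervals, at 32.2%, 32.8%, 33.3% and 34.0% from the nearest to the farthest quartile. Ordered by the lower summit pileup, it was 30.5%, 30.0%, 32.2% and 39.5%. In that order the intervals of the weakest (26.4 to 35.05) and the strongest quartile (35.03 to 44.2) overlapped. The part of depth in the order by strength was not tested.

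Some GATA matches came with part of an E-box at a fixed distance. The pair of CTG, then any 8 bases, then AGATAA is known as a composite site of TAL1 and GATA factors in blood cells, and its sequences are printed below for the 2 strongest members that hold it and for members nearest to genes named by rule. Each is given on the strand of the motif, with 10 reference bases on either side, and the capitals mark CTG and AGATAA.
Arsj, chr3:126463369-126463405 (minus strand): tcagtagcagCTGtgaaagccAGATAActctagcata
Tmem161b, chr13:84648228-84648264 (minus strand): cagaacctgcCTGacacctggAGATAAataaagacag
Prdm1, chr10:44555515-44555551 (plus strand): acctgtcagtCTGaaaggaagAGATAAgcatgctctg
Dppa4, chr16:48252990-48253026 (plus strand): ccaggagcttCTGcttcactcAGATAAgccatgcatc
Hapln1, chr13:89493323-89493359 (minus strand): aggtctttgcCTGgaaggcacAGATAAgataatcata
Zeb2, chr2:45307735-45307771 (plus strand): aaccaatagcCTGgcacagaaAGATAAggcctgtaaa
Dppa4, chr16:47937982-47938018 (plus strand): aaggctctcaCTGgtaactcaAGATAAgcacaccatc
Zeb2, chr2:45184368-45184404 (plus strand): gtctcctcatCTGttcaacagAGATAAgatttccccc
Runx1, chr16:93147645-93147681 (plus strand): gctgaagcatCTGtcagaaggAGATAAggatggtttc
Marcks, chr10:37232265-37232301 (minus strand): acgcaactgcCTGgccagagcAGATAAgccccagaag

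The composite was present in 63 members (3.67%, Wilson 95% interval 2.88 to 4.66), against 4 d2-only regions (0.22%, 0.086 to 0.56) and 0.32% of the windows 1000 bp from member summits. Over all union regions it was 0.65%, and in regions gained at d4 inside gene bodies 3.14%. Both members of Zeb2, which encodes an E-box repressor of epithelial genes, held it, as did both members of Dppa4, a pluripotency gene, 1 of 4 members of Runx1, a master regulator of blood formation, and 1 of 5 members of Hapln1, a matrix link protein gene. In fold enrichment the Zeb2 members had 8.63 and 9.12 in d4 replicate 1 and 7.32 and 10.3 in replicate 2. The Dppa4 members had 11.9 and 11.6 in d4 replicate 1 and 9.81 and 8.03 in replicate 2. The spacing was counted for CTG followed by AGATAA or TGATAA. At 8 bases 87 members held the pair and at 7 bases 65 did, against a median of 42 members over the other 19 spacings between 0 and 20 bases (range 28 to 55). In d2-only regions 4 held it at 8 bases.

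**Figure D2:**
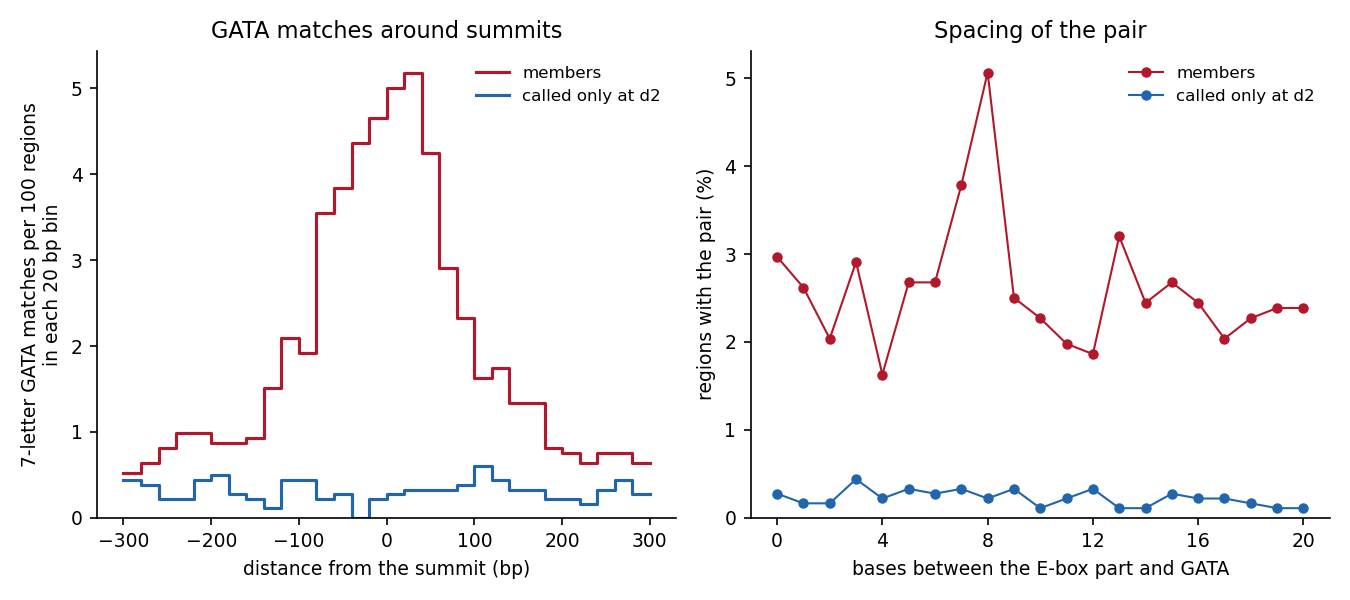
Left, 7-letter GATA matches per 100 regions in bins of 20 bp (y axis) by distance from the summit in bp (x axis) for members (red) and d2-only regions (blue); members peak at the summit and d2-only regions stay flat. Right, the share of regions (y axis, %) with CTG followed by AGATAA or TGATAA by the number of bases between them (x axis); members reach 5.06% at 8 bases.

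Other motifs were more frequent in members too, at smaller differences. Both strands of the same windows were searched for all of them. The MEIS letters CTGTCA were found in 25.4% of members, against 13.1% of d2-only regions and 14.5% of all union regions. The AP-1 letters TGACTCA or TGAGTCA were found in 10.8%, against 4.12% and 4.74%. The TEAD letters CATTCCA were found in 10.1%, against 3.52% and 3.50%, and the forkhead letters TGTTTAC or TATTTAC in 9.95%, against 4.51% and 4.34%. The RUNX letters TGTGGTT were found in 8.56%, against 3.96% and 3.93%, and the ETS letters ACAGGAAG or ACCGGAAG in 7.92%, against 3.24% and 4.71%. Each of these differences from d2-only regions had a Newcombe 95% interval above 0, the smallest being that of RUNX (4.60 percentage points, 3.01 to 6.23). The shorter ETS core CAGGAA was in 41.6% of members and 24.3% of d2-only regions. Regions gained at d4 inside gene bodies had shares near those of members, with 25.6% for MEIS, 9.20% for AP-1, 8.17% for TEAD, and 9.31% for both forkhead and RUNX. By library the intergenic distal regions, members among them, gave AP-1 shares of 8.82% and 8.36% at d4, against 4.84% and 4.84% at d2. ETS shares were 6.01% and 6.16% at d4, against 3.35% and 3.49% at d2.

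Some motifs were rarer in members than in d2-only regions. The E-box CAGGTG, read by ZEB and SNAI repressors, was found in 6.98% of members, against 28.1% of d2-only regions and 16.9% of all union regions, a difference of -21.1 percentage points (-23.5 to -18.7). Windows 1000 bp from member summits held it in 11.4%. The POU octamer ATGCAAAT was in 0.99% of members, against 5.88% of d2-only regions and 1.89% of all union regions, and the SOX letters CCTTTGT in 5.70%, against 12.5% and 5.69%. The CTCF core was in 5.65%, against 15.4% and 13.5%. The ZIC letters CCTGCTGG were in 3.67%, against 7.42% and 4.83%, and the KLF letters GGGNGTGG in 6.34%, against 10.1% and 12.3%. The windows of the 2 strongest d2-only regions with CAGGTG in the window are printed, with those letters in capitals, to set beside the members above.
Cdh11, chr8:102863178-102863298 (plus strand): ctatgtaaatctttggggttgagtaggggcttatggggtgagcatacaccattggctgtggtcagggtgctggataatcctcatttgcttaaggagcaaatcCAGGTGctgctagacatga
Ptbp2, chr3:120176745-120176945 (plus strand): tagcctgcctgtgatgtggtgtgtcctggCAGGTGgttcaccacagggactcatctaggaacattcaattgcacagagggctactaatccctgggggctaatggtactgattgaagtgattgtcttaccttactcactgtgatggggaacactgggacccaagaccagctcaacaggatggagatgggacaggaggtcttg

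A different E-box, CAGCTG, read by many bHLH factors, did not set the sets apart (19.8% of members, 20.9% of d2-only regions and 16.7% of all union regions, difference -1.10 percentage points, -3.75 to 1.56). In windows 1000 bp from member summits it was in 8.00%. The E-box CAGATG, read by TAL1 and HAND factors, was in 21.5% of members, against 15.8% of d2-only regions and 13.4% of all union regions. The T-box letters GGTGTGA were in 4.83% of members, against 2.97% and 3.11%, the NKX2 letters CACTTGA in 3.38%, against 1.65% and 1.92%, and the TCF letters CTTTGAT in 5.53%, against 4.07% and 2.77%. For the homeodomain letters TAATTA, the TFAP2 letters GCCNNNGGC, the ESRR letters AAGGTCA, the SMAD palindrome GTCTAGAC and the MEF2 motif, the interval of the difference included 0. Those were found in 4.13%, 8.91%, 4.48%, 0.64% and 0.29% of members, against 4.51%, 8.30%, 3.90%, 0.22% and 0.22% of d2-only regions and 2.12%, 14.7%, 2.92%, 0.19% and 0.22% of all union regions.

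**Figure D3:**
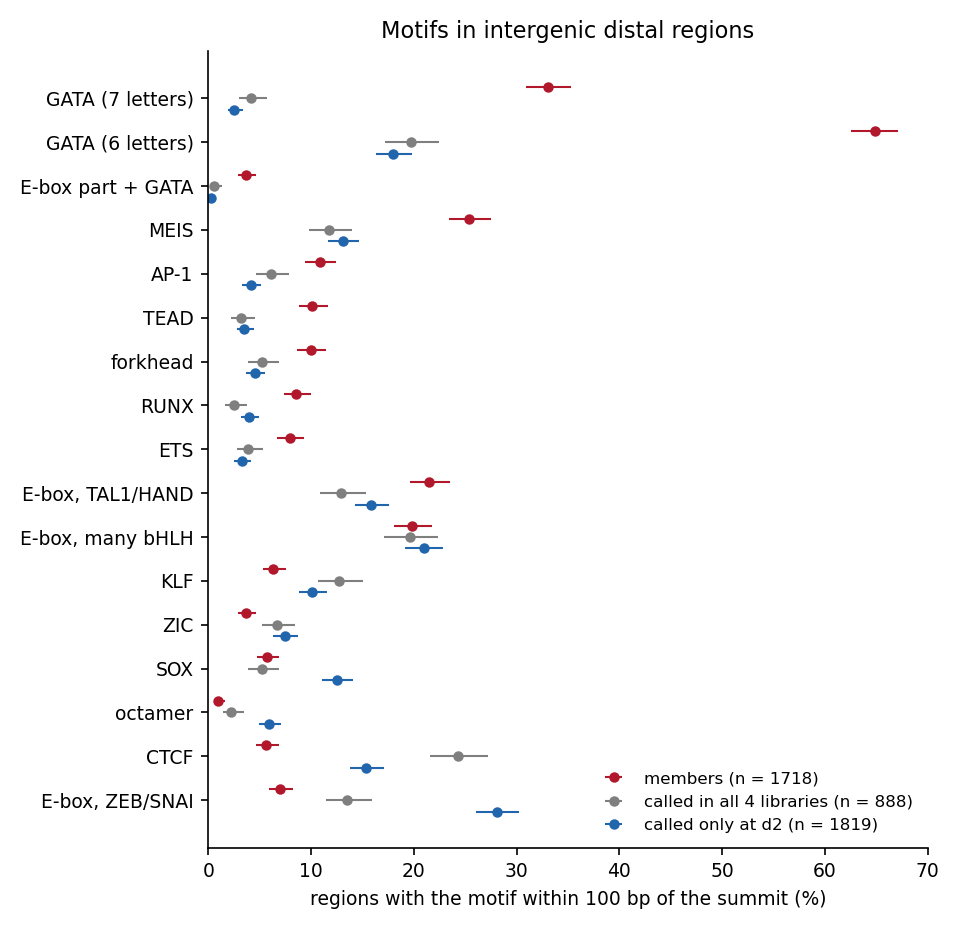
Share of regions with each motif within 100 bp of the summit (x axis, %) for members (red), intergenic distal regions called in all 4 libraries (grey) and d2-only regions (blue), with Wilson 95% intervals. Members lead for both GATA forms, at 33.1% and 64.8%, and d2-only regions for the ZEB and SNAI E-box, at 28.1%.

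A count of all 6-letter sequences, with both strands counted as 1, put the same motifs first without choosing them. Of 2080 sequences compared, the largest difference in favour of members was that of AGATAA, given above. The next was CTTATC, the other strand of GATAAG, in 35.5% of members and 4.95% of d2-only regions. Of the 10 largest, 8 held the letters GATA on either strand, and the others were CAGGAA, given above, and CAGACA, in 28.5% of members and 15.8% of d2-only regions. In favour of d2-only regions, the largest was CACCTG, the other strand of CAGGTG. It was followed by AGGTGG, in 11.9% of members and 24.8% of d2-only regions, which overlaps that E-box. The 10 largest on that side also held CCGCCC, in 4.71% of members, 14.3% of d2-only regions and 30.7% of regions called in all 4 libraries. The SD of the difference over all 2080 sequences was 3.10 percentage points.

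Within the members, the other motifs were about as frequent with a GATA motif as without it. ETS letters were in 6.87% of the 568 members with the 7-letter GATA motif and in 8.43% of the 1150 without it, and AP-1 letters in 10.7% and 10.9%. For each of the 10 motifs compared in this way, the Newcombe interval of the difference included 0, the widest being that of MEIS (-3.46 percentage points, -7.66 to 0.94). Of the 6 kinds GATA (6-letter), ETS, AP-1, TEAD, forkhead and RUNX, 366 members (21.3%) held none, against 67.4% of d2-only regions, and 73 members (4.25%) held 3 or more, against 0.27% of d2-only regions.

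The members were spread over many genes. By nearest protein-coding start, 1314 genes had at least 1 member, which is 6% of 21911 genes, and 6.74% had a d2-only region. Of the 1314 genes, 1038 had 1 member, 192 had 2 and 84 had 3 or more. The last of these held 296 members, and 55 genes had 3 or more d2-only regions. Of those 84 genes with 3 or more members, 43 had no d2-only region, whereas only 6.74% of all coding genes had one. The members were within 100 kb of the coding start in 64.2% of cases. The coding gene was also the nearest gene of any type in 532 members, so most assignments pass over a gene of another type.

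Bmp2, which encodes a growth factor of the BMP family, and Isl1, a transcription factor gene of the second heart field, had 7 members each. The Bmp2 members lay 18.6 to 302.9 kb from its start, on both sides. Their fold enrichments were 11.4, 13.3, 9.95, 11.7, 12.8, 13.8 and 12.8 in d4 replicate 1 and, in the same order, 13.7, 12.9, 8.88, 9.95, 10.99, 9.34 and 11.8 in d4 replicate 2. All 7 were above the median of members in both libraries. Bmp2 had 1 d2-only region among its 16 intergenic distal regions. Fermt1, its neighbour, which encodes the integrin regulator kindlin-1, had 5 more members, all upstream.

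Isl1 had no d2-only region among its 15. Its members ranged from 4.05 to 577.6 kb from the start, with fold enrichments of 5.47, 6.18, 11.1, 7.41, 6.34, 7.31 and 6.27 in d4 replicate 1 and 5.25, 7.02, 10.0, 6.22, 9.59, 5.37 and 5.73 in d4 replicate 2. The member 133.5 kb upstream was the highest in both libraries, with the member at 199.4 kb close to it in d4 replicate 2 only. Apart from the 133.5 kb member, all were below the median of members in d4 replicate 1.

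Ryr2, the calcium release channel gene of heart muscle, had 6 members, with 2 upstream and 4 downstream of the nearest start, and no d2-only region among 10. Its highest member had 10.4 in d4 replicate 1 and 12.03 in replicate 2. S1pr1, the sphingosine-1-phosphate receptor gene of endothelium, had 6 members, 25.3 to 160.5 kb from its start. They had 10.1, 6.91, 10.2, 6.94, 6.70 and 8.43 in d4 replicate 1 and 5.34, 6.00, 11.3, 7.56, 11.1 and 7.07 in d4 replicate 2. At the members with 10.1 and 6.70 in d4 replicate 1 the replicates differed by more than a factor of 1.5. Marcks, which encodes an actin-binding substrate of protein kinase C, had 6 members, all upstream, at 81.4 to 600.2 kb. One of them had 8.99 in d4 replicate 1 and 18.7 in replicate 2, the least alike of the members named.

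Hapln1, whose product links hyaluronan to proteoglycans in the matrix, had 5 members, all upstream at 42.9 to 203.6 kb, and they were its only intergenic distal regions. Their fold enrichments were 5.63, 9.19, 6.44, 10.5 and 6.27 in d4 replicate 1 and 5.82, 10.6, 8.45, 11.1 and 7.30 in d4 replicate 2. All 5 held the 6-letter GATA form and 4 the 7-letter form. Zfp703, a zinc finger gene, also had 5 members of 5 intergenic distal regions, at 5.51 to 307.5 kb upstream. Reep3, Trps1, which encodes an atypical GATA-type repressor, Pkdcc, which encodes a secreted kinase, and Lrig3 had 5 members each. The lower fold enrichment of both d4 libraries reached 11.7 for Reep3, 11.4 for Trps1 and 10.5 for Pkdcc, but 6.51 for Lrig3.

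The windows of the strongest member of 6 named genes are printed to show how they differ. Capitals mark the 6-letter GATA form and the ETS, AP-1, TEAD, forkhead and RUNX letters given above. The windows of the strongest members of Aplnr and Runx1 were searched in the same way. They held no match and are not printed.
Bmp2, chr2:133586522-133586642 (plus strand): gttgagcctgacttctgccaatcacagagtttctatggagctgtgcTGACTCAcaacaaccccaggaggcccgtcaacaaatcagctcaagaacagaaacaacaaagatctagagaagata
Isl1, chr13:116443337-116443457 (plus strand): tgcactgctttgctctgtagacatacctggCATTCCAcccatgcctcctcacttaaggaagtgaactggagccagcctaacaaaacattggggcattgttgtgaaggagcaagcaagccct
Ryr2, chr13:11023839-11023959 (plus strand): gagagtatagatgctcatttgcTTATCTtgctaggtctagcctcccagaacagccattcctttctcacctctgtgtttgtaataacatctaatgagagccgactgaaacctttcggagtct
S1pr1, chr3:115641573-115641693 (plus strand): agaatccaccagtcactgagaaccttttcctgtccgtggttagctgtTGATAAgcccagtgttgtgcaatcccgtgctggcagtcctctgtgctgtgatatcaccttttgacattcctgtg
Hapln1, chr13:89401388-89401508 (plus strand): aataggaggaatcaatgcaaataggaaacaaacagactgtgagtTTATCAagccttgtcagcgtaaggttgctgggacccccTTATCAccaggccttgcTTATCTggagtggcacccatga
Mef2c, chr13:83382748-83382868 (plus strand): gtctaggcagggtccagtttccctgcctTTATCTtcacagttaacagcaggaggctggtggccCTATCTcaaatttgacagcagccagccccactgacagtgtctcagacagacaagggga

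The Hapln1 window held 3 GATA matches in 121 bases and the Mef2c window 2, whereas the Ryr2 and S1pr1 windows held 1 each. The Bmp2 window held an AP-1 match and the Isl1 window a TEAD match, and neither held a GATA match. Over all its members, Bmp2 had a 6-letter GATA match in 6 of 7 and a TEAD match in 3, and Isl1 a GATA match in 2 of 7.

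**Figure D4:**
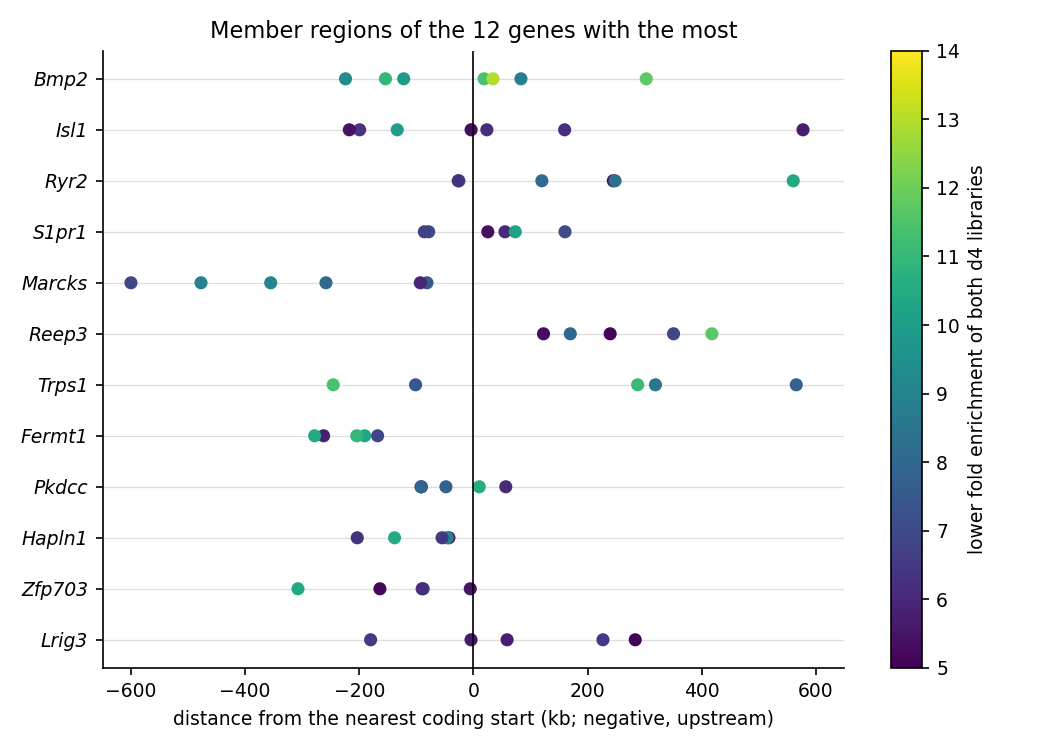
Distance of each member from the nearest protein-coding start (x axis, kb, negative upstream) for the 12 genes with the most members, coloured by the lower fold enrichment of both d4 libraries. Members of Hapln1, Zfp703, Marcks and Fermt1 lie on the upstream side, and Bmp2 has the strongest ones.

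Among the gene lists, the endothelial list had 15 of 56 genes with a member (26.8%, Wilson 95% interval 17.0 to 39.6). A d2-only region was nearest to 6 of them (10.7%, 5.00 to 21.5), and 6% of all coding genes had a member. The intervals overlap. Of the 56 genes, 33 were nearest to any intergenic distal region. The lists were chosen with earlier results of these data known. S1pr1, Chst2, Aplnr and Clec14a, for instance, are also named in the paper for regions opened at d4 in these libraries. The comparison with all coding genes is therefore a description and not an independent test. The 15 were S1pr1 with 6 members, Mef2c and Chst2 with 3 each, Hey1, Cd93, Nrp1 and Aplnr with 2 each, and Sox7, Sox18, Fli1, Efnb2, Nrp2, Cd34, Clec14a and Lmo2 with 1 each, which is the whole set and not a choice among them. Of the 28 members, 11 held the 7-letter GATA motif. The strongest member of Mef2c, a transcription factor gene of muscle and vessels, had 11.98 in d4 replicate 1 and 10.9 in replicate 2. The strongest of Hey1, a Notch target gene, had 11.4 and 10.6, and those of Cd93, a surface receptor gene, had 12.1 and 8.69 at the first and 9.22 and 9.06 at the second. The strongest of Chst2, a sulfotransferase gene, had 9.88 and 7.95. The member of Fli1, an ETS factor gene of endothelium and blood, had 6.72 and 6.34 and held GATA and ETS letters. The VE-cadherin gene Cdh5 had no member among its 12 intergenic distal regions and 1 d2-only region. The Cdh5 element that the paper reports as more open at d4 lies in an intron, and the rule leaves out gene bodies. When regions went to the nearest gene of any type, the count of endothelial genes with a member was 8, and without d4 replicate 2 the count of 15 became 24.

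The cardiac and cardiopharyngeal list had 8 of 36 genes with a member (22.2%, 11.7 to 38.1), against 6 with a d2-only region. Tbx20, a T-box gene of the heart, had 3 members, the strongest with 14.3 in d4 replicate 1 and 14.2 in d4 replicate 2. Mef2c, which is in the endothelial list as well, had 3, and Fgf10, a growth factor gene of the second heart field, had 3 with up to 7.53 in the lower library. The haematopoietic list had 3 of 25 genes, against 1 with a d2-only region, and Runx1 had 4 members between 170.7 and 326.8 kb upstream. The mesenchymal and matrix list had 9 of 28 (32.1%, 17.9 to 50.7), against 6 with a d2-only region. The paper counts Hapln1, Nid1 and Col4a1 of this list among the marker genes of an endothelial cluster. All Hapln1 members overlap regions that it lists as opened at d4, so the list is not separate from endothelium. In this list Nid1, a basement membrane gene, had 3 members of which the highest had 12.8 and 12.3, and Cdh11, Zeb2 and Fn1 had 2, 2 and 1. Of the 17 members of this list, 11 (64.7%, 41.3 to 82.7) held the 7-letter GATA motif, against 33.1% of all members. Hapln1 alone gave 4 of the 11, and members of 1 gene are not independent. The cardiac list had 7 of 25 members with it (28%, 14.3 to 47.6) and the early mesoderm list 2 of 8. The haematopoietic list had 3 of 6, the endoderm list 3 of 4, the pluripotency list 3 of 8, the trophoblast list 1 of 2 and the neural list 1 of 1.

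Early mesoderm genes were even between the sets, with 5 of 27 genes with a member and 5 with a d2-only region. Gsc, Eomes and Dll1 had 2 members each and Lhx1 and Evx1 1 each. The endoderm list had 3 of 24 (Cxcr4, Prdm1 and Sox7), against 2 with a d2-only region, and the trophoblast list 1 of 16, Eomes, against 2. Pluripotency genes had a member in 7 of 31 (22.6%, 11.4 to 39.8), against a d2-only region in 10 (32.3%). Dppa4 had 2 members, and Nanog, Klf5, Dppa2 and Sox2 were among those with 1. Neural genes differed on the d2-only side. A member was nearest to 1 of 24 neural genes, En1 (4.17%, 0.74 to 20.2), and a d2-only region to 9 of 24 (37.5%, 21.2 to 57.3), with intervals that did not overlap. Over all coding genes these shares were 6% and 6.74%, so the member share was near that of all genes and the d2-only share above it. The En1 member lay 132.3 kb downstream and had 14.4 in d4 replicate 1 and 12.6 in d4 replicate 2.

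**Figure D5:**
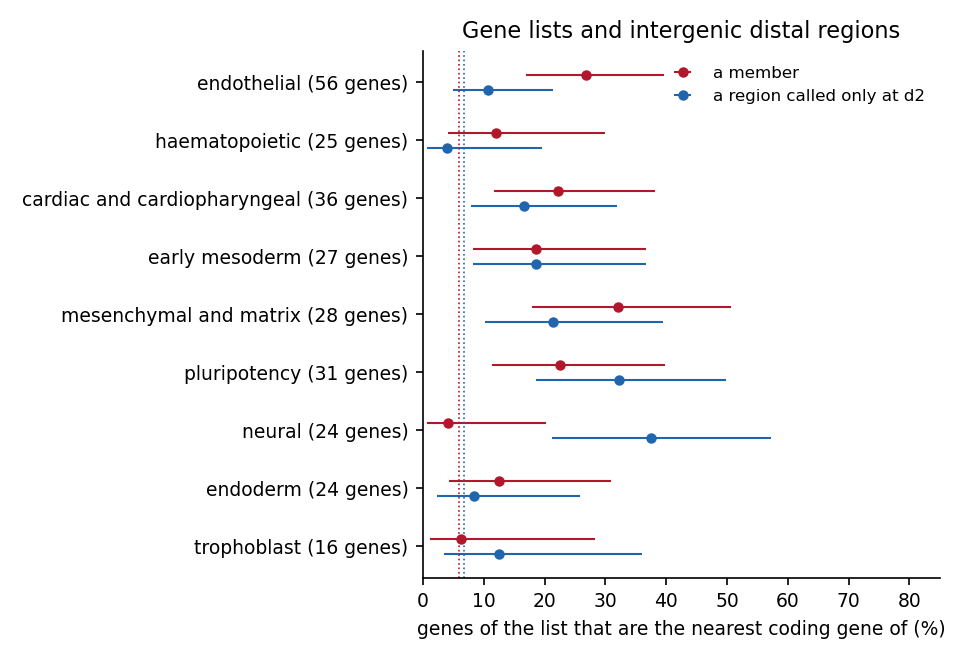
Share of the genes of each list (x axis, %) that are the nearest protein-coding gene of at least 1 member (red) or 1 d2-only region (blue), with Wilson 95% intervals; dotted lines mark the shares over all coding genes, 6% and 6.74%. Endothelial genes have 26.8% and 10.7%, and neural genes 4.17% and 37.5%.

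Peak lists measure access and not expression, so the labelled cell type was set against promoters only. Promoters of list genes were looked up only where the gene was nearest to an intergenic distal region. This was so for 33 of the 56 endothelial genes. Among them 15 had a promoter peak in all 4 libraries, 2 in both d4 libraries only and 5 in both d2 libraries only. For the pluripotency list 19 of 31 genes were looked up, and the counts were 8, 0 and 3. No promoter state is given for Pecam1, an endothelial marker, or Pou5f1, which marks mESCs. For them a missing look-up and a missing peak cannot be told apart. The genes nearest to members mostly had an open promoter already at d2. A promoter peak in all 4 libraries was found for 807 of 1314 of these genes (61.4%, 58.8 to 64.0), against 56.5% of genes with a d2-only region and 46.1% of all coding genes. In 80 genes (6.09%) a promoter was called in both d2 libraries only, against 6.30% of genes with a d2-only region and 4.92% of all coding genes. A promoter called in both d4 libraries only was found for 16 genes (1.22%), against 1.29% of genes with a d2-only region and 0.872% of all coding genes. Cd93, Cd44 and Zfp36l1 were among these 16.

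Members lay near each other about as often as d2-only regions did. Within 50 kb of another member lay 382 (22.2%, 20.3 to 24.3), against 21.8% of d2-only regions. There were 6 chains of 4 or more members with gaps of at most 50 kb, against 4 chains of d2-only regions. With gaps of up to 100 kb there were 18 and 8. With a −log10 q of at least 10 the share within 50 kb was 11.01%. The longest chain with gaps of at most 50 kb had 5 members over 140.9 kb on chromosome 12 near Gdf7, Hs1bp3 and Rhob. Near Shroom3 and Sowahb on chromosome 5, 4 members lay within 37.8 kb and were the only union regions there. At Nid1 and Lyst on chromosome 13, 4 members lay within 40.0 kb. The others, with 4 members each, lay near Rspo3 on chromosome 10, Jun and Fggy on chromosome 4, and Zfp36l1 on chromosome 12.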

How the data were processed

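ATAC-seq libraries of ES-E14TG2a cells, 2 from d4 and 2 from d2, were grouped by their labels. By the study's methods and the submitters' notes, the authors trimmed adapters (cutadapt) and mapped the pairs to mm10 (Bowtie2). They discarded duplicates, mitochondrial reads and reads with several positions. MACS2 then called peaks on each library alone, with no control library, and peaks in blacklisted regions were dropped. Whether the stated shift and extension acted in paired-end mode was not tested. The deposited fold enrichment is a ratio of pileup to background, and the deposited −log10 p and −log10 q are the authors' values. The deposited score column was not used.

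Pileup and background were solved from the fold and −log10 p. A whole pileup that returned the deposited −log10 p to within 0.01 was found for 100% of peaks. The genome background coverage was 0.755 (d4 replicate 1), 0.744 (d4 replicate 2), 0.568 (d2 replicate 1) and 0.483 (d2 replicate 2). Read totals are not in the files used here.

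Peaks overlapping by 1 bp were merged, and annotated with GENCODE M 21. Coordinates are 1-based mm10, and sequences are from RefSeq GRCm38.p6, whose chromosome lengths held all peaks. Motifs were searched within 100 bp of the summit of the peak with the highest −log10 p. Shares carry Wilson and differences Newcombe 95% intervals. No p-value was computed. Scripts used Python 3.11.15 with pandas, scipy 1.17.1 and pysam 0.24.0 and were tested on simulated data.

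Members, lists, motifs and the naming rule were chosen with earlier results of these data known. Genes named were those of the 12 strongest members, the 12 protein-coding genes with the most members, up to 5 genes of each list with the most members, and members at the limits of the rule. Further endothelial genes, those of the composite and of the chains, and promoter examples were named after their values were seen. Alternatives are given in the closing section.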

Additional observations from a re-analysis of the deposited data

How the results depend on the processing

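The GATA difference between members and d2-only regions stayed above 0 in all 17 settings tried, between 20.1 and 46.9 percentage points. No paired analysis was possible because the results come from no test, and a call uses both replicates of a time point. Within replicate numbers, which the labels do not say mark a shared experiment, the GATA share of intergenic distal regions was 16.1 percentage points higher at d4 than at d2 for number 1 and 16.7 for number 2. Those regions include the members at d4 and the d2-only regions at d2. The number of members was 799 at a −log10 q of at least 10, 1090 with the top 15000 peaks of each library, and 404 with members whose lower pileup, scaled to d2 depth, was at least 2 times the smallest pileup called at d2, a setting chosen after seeing the data. Those 404 had a GATA share of 40.3%. Leaving out 1 library gave from 1814 members without d2 replicate 2 to 3146 without d4 replicate 2 (2742 without d4 replicate 1 and 1926 without d2 replicate 1), GATA shares of 27.2% to 31.8% and differences of 24.5 to 28.8 percentage points.

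The GATA share and difference were 21.2% and 20.1 percentage points within 50 bp of the summit, 39.9% and 36.5 over whole regions, and 64.8% and 46.9 with the 6-letter motif. Settings added after seeing the data gave 34.1% and 31.1 in windows of 45% to 55% GC, and 32.8% and 29.7 in windows with no soft-masked base. The median distance to a start was 22.3 kb with regions over 2500 bp from a start and 61.1 kb with protein-coding genes only, and 19.9 to 20.6 kb when 1 library was left out. The share of members within 50 kb of another was 11.01% at a −log10 q of at least 10, 15.6% with the top 15000 peaks, 25.3% with protein-coding genes only and 22.4% to 31.9% when 1 library was left out. It was 12.5% within 20 kb and 31.1% within 100 kb. The number of endothelial genes with a member was 8 by the nearest gene of any type, and 15 to 24 when 1 library was left out, with 24 without d4 replicate 2. In other settings it was 13 to 19. Leaving out a d4 library leaves 1 peak to suffice, which adds regions by construction. The shallower d2 libraries limit what their missing calls show, and weak peaks rest on few fragments.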
